A study of Arabidopsis thaliana with 46 samples.

Results

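Plants take up sulfur as sulfate and reduce it before it can enter cysteine, and the transcripts described here belong to 10 genes of that route and its deficiency response, chosen by gene ID out of 33016 IDs in the N-dose and root and protoplast tables and 33341 IDs in the cycloheximide (CHX) tables. The members are 3 sulfate transporters, 5 enzymes of sulfate activation and reduction (ATPS1, APR1, APR2, APR3 and SIR) and 2 genes named for their rise under sulfur shortage (LSU1 and SDI1). All are Arabidopsis thaliana genes, and they lie on the TAIR10.1 assembly as follows. The transporters are SULTR1;1 (AT4G08620, chr4:5500313-5506313), SULTR1;2 (AT1G78000, chr1:29327515-29333220) and SULTR2;1 (AT5G10180, chr5:3193017-3197136), all on the plus strand. The enzymes are ATPS1 (AT3G22890, chr3:8112614-8115024, plus), APR1 (AT4G04610, chr4:2324878-2327064, plus), APR2 (AT1G62180, chr1:22975530-22977885, minus), APR3 (AT4G21990, chr4:11657008-11659167, minus) and SIR (AT5G04590, chr5:1319074-1323364, plus). LSU1 (AT3G49580, chr3:18374908-18375940) and SDI1 (AT5G48850, chr5:19805437-19807853) are on the minus strand. Their RNA was counted in 46 libraries that fall into 14 groups and 3 experiments.

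All seedlings were of ecotype Col-0, labelled as 10 days old, and were grown on 1 mM KNO3 before treatment. The TARGET assay uses protoplasts, root cells freed of their wall. These received a vector for TGA4, a bZIP transcription factor (TF) fused to a glucocorticoid receptor domain (GR), or a GR-only empty vector (EV), and transfected cells were sorted by fluorescence. Dexamethasone (DEX) lets the fusion protein enter the nucleus, and CHX blocks translation. The N-dose experiment (18 libraries) compared EV with TGA4 cells at 3 N supplies. The first, 0N, held KCl at 20 mM and no N, 5N held KNO3 at 5 mM (per the methods with KCl added), and 60N held both KNO3 and NH4NO3 at 20 mM each. All of these cells received 35 µM CHX and 10 µM DEX, with 3 replicates a group. The CHX experiment (12 libraries, 3 replicates a group) compared both vectors with and without 35 µM CHX, all with 10 µM DEX. Its N dose is not in the labels and was that of 60N per the methods. The root and protoplast experiment (16 libraries, 4 replicates a group) set 60N against 0N, once in protoplasts and once in whole roots, with neither CHX nor DEX. Per the methods, those protoplasts carried EV, and the whole-root plants were grown in liquid medium, and somewhat longer than the labelled age, where the protoplast plants were grown on plates. Replicates of the N-dose and CHX experiments were wells of 1 transfection per vector, so that vector and transfection cannot be told apart and p-values measure the spread between wells.

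Library totals ran from 7835278 to 16214169 counts in the N-dose experiment, from 2397664 to 8177924 in the CHX experiment and from 9677719 to 17478925 in the root and protoplast experiment. The vector gene followed the labels: TGA4 stood at 5155 to 6711 CPM (counts scaled to the size of the library) in TGA4 cells against 32.1 to 57.3 CPM in EV cells of the N-dose experiment, and at 8583 to 25900 against 28.8 to 47.0 CPM in the CHX experiment. In the root and protoplast experiment, which had no TGA4 vector, it stood at 54.0 to 228 CPM in protoplasts and at 29.5 to 36.4 CPM in roots. Protoplasts did not show the full set of root cell type markers. In the root and protoplast experiment the cortex marker CO2 was at 0 to 0.211 CPM in protoplasts and at 3.89 to 8.11 CPM in roots. The summed epidermis and root hair markers (EXPA7, COBL9 and GL2) were at 2.08 to 4.91 CPM in protoplasts against 32.2 to 50.3 CPM in roots. CO2 was at 0 in all libraries of the other experiments. All CPM values, those above included, were scaled by the trimmed mean of M-values (TMM) within an experiment. A gene was called differentially expressed (DE) when its Benjamini-Hochberg adjusted p was below 0.05. That p came from the edgeR quasi-likelihood test over all genes tested. Fold changes are given on the log2 scale with their SE. The experiments were not tested against each other.

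Sulfate enters root cells through SULTR1;1 and SULTR1;2, both high-affinity transporters of the root surface, while SULTR2;1 is a low-affinity transporter of vascular tissue. ATP sulfurylase (ATPS1) activates sulfate to adenosine phosphosulfate, the APS reductases (APR1, APR2 and APR3) turn this into sulfite in plastids, and sulfite reductase (SIR) makes sulfide, which O-acetylserine takes up to form cysteine. APS reductase is known as a main control point of the route and as a link to nitrogen (N) supply, since cysteine needs an N-containing acceptor. LSU1 encodes a small protein and SDI1 a repressor of glucosinolate synthesis, and both are standard reporters of sulfur shortage.

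Sequence can show which members share known control elements. TGA factors bind TGACG, and the sulfur-responsive element has the core GAGAC. In the 250 bases before the annotated gene start (RefSeq annotation of TAIR10.1, both strands searched), TGACG was present in 3 of the 10 members (SULTR1;2, APR3 and SDI1), against 18.6% of the 27443 protein-coding genes with such a window. The longer TGACGT, which contains TGACG, was present in SDI1 alone of the members, against 7.69% of all windows, and GAGAC was also present in SDI1 alone of the members, against 25.8% of all windows. The windows of APR1, APR3 and SDI1 are shown because the first pair were called between TGA4 and EV cells at all 3 N doses and SDI1 holds both kinds of match. Capitals mark matches to the searched motifs on either strand.
APR1 (chr4:2324628-2324877, plus strand): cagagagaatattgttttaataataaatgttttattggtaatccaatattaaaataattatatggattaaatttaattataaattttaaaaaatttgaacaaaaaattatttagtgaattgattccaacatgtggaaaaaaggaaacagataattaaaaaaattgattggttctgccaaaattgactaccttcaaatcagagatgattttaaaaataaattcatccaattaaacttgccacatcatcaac
APR3 (chr4:11659168-11659417, minus strand): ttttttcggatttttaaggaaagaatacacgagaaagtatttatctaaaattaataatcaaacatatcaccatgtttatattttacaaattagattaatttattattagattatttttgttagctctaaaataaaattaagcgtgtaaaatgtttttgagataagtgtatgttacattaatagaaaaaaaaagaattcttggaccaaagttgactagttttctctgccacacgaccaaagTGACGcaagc
SDI1 (chr5:19807854-19808103, minus strand): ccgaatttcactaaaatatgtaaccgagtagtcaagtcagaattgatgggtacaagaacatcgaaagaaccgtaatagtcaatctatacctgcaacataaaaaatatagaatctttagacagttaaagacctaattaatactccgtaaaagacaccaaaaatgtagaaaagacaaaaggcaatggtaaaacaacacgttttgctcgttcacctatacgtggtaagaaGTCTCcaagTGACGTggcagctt
In APR3 the last base of the TGACG match lies 6 bases before the gene start. In SDI1 the GAGAC match, read on the opposite strand as GTCTC, ends 19 bases before the start and TGACGT 9 bases before it. The APR1 window holds none of the searched motifs. Such matches are descriptions of the sequence and not measured binding.

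A second shared element is the target site of miR395, a microRNA known to act on ATP sulfurylases and a sulfate transporter. The 6 annotated MIR395 genes share the seed shown in capitals (bases 2 to 8), and the form of MIR395a is printed with the best-matching transcript sites of the members. In the sites, capitals mark bases equal to its exact reverse complement and lower case marks all others, which were counted as mismatches. A possible G:U pair thus counted as a mismatch.
MIR395a (chr1:9363206-9363226, minus strand): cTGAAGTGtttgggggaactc
SULTR2;1 site (chr5:3193268-3193288, plus strand): aAGTTCtCCCAAACACTTCAa
ATPS1 site (chr3:8113164-8113184, plus strand): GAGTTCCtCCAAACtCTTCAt
Both sites lie in coding exons and have 3 mismatches, which 8 of 27440 protein-coding genes (0.0292%) reach or better. The other 8 members had no site with 5 or fewer mismatches. The 6 precursors held 12 counts in all over the 12 CHX libraries, too few to compare, and their IDs are not among those of the other experiments' tables.

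The first comparison asked how whole roots respond to N. From 0N to 60N, ATPS1 and the 3 APS reductases fell, SIR was not called and an uptake transporter rose. APR1 was at 64.8, 90.3, 86.7 and 58.6 CPM in the 0N roots and at 8.11, 16.5, 12.2 and 8.24 CPM in the 60N roots. The groups did not overlap, and APR1 was 6.67-fold lower at 60N (log2 fold change -2.74 ± 0.20, edgeR adjusted p = 7.015e-10). ATPS1 was at 228, 278, 287 and 193 CPM without N and at 88.2, 120, 101 and 87.8 CPM with it. It was 2.49-fold lower (log2 fold change -1.31 ± 0.12, adjusted p = 2.81e-08), again with no overlap. APR3 went from a mean of 38.0 ± 4.2 to 15.5 ± 6.0 CPM (SD, n = 4) and APR2 from 34.5 ± 5.3 to 18.7 ± 6.6 CPM, with log2 fold changes of -1.29 ± 0.18 and -0.89 ± 0.18 (edgeR adjusted p = 5.205e-06 and 0.000387). SIR, the enzyme after the reductases, was at 194 ± 13 and 178 ± 25 CPM, with overlapping groups and a 95% interval of the log2 difference from -0.34 to 0.09.

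**Figure D1:**
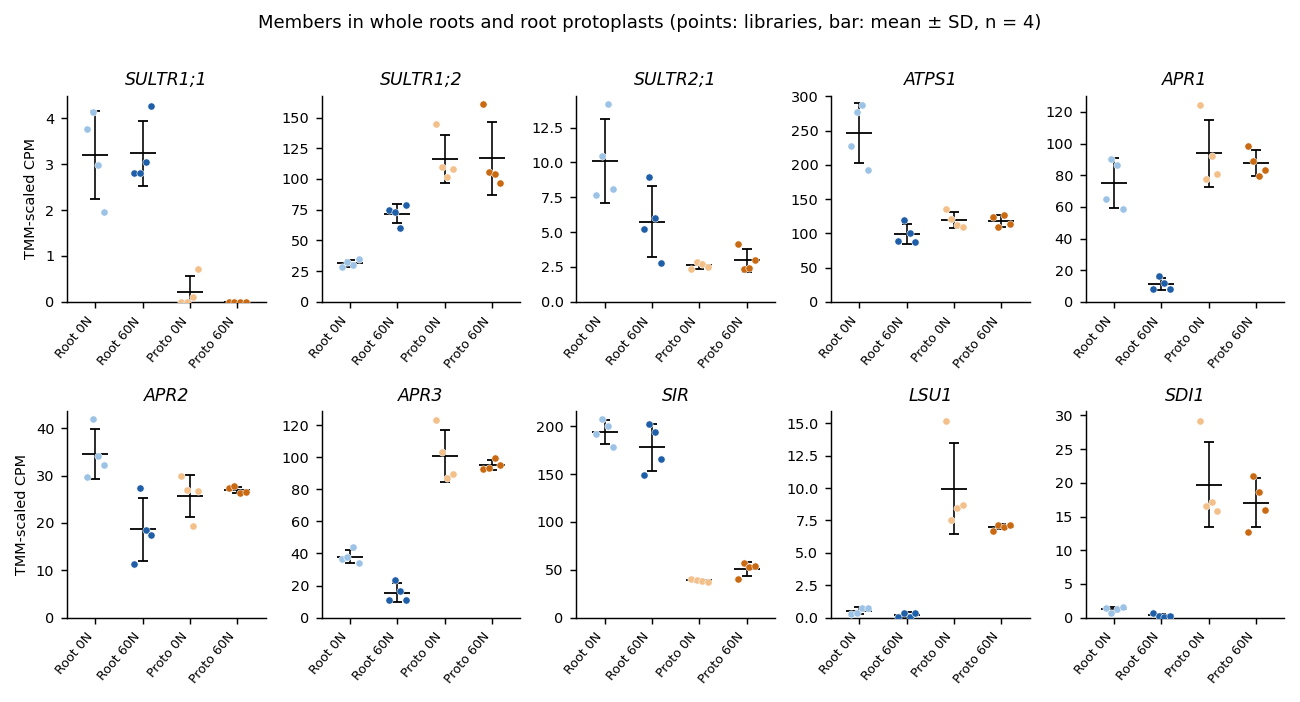
CPM of each member (y axis, TMM-scaled, from 0) in the 4 libraries of each group (x axis: whole roots and protoplasts at 0N and 60N), with the mean and SD as bars. In roots APR1 sat between 8.11 and 16.5 CPM at 60N, below its lowest value at 0N, while its 8 protoplast libraries sat between 77.9 and 124 CPM at both doses.

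The transporters of the root did not move together with N. SULTR1;2 was at 28.03, 32.7, 30.3 and 34.5 CPM at 0N and at 74.8, 73.3, 60.4 and 79.0 CPM at 60N. Every 60N library lay above every 0N library, a rise of 2.29-fold (log2 fold change 1.20 ± 0.14, adjusted p = 9.469e-07). SULTR2;1 fell by 0.81 ± 0.25 on the log2 scale (adjusted p = 0.0125), but its groups overlapped (7.67 to 14.2 against 2.77 to 8.92 CPM), and the call was lost without Root_0N replicate 3 (log2 fold change -0.61, adjusted p = 0.0642) or in a fit of the 2 root groups only (-0.72, adjusted p = 0.0575). SULTR1;1, the other uptake transporter, was low in both groups, at 1.96 to 4.13 and 2.81 to 4.28 CPM, with a 95% interval of the difference from -0.69 to 0.72. Of the deficiency genes, SDI1 was at 1.47, 0.752, 1.21 and 1.58 CPM at 0N and at 0.662, 0.270, 0.119 and 0.261 CPM at 60N (log2 fold change -1.89 ± 0.43, adjusted p = 0.00122). These SDI1 values rest on 2 to 37 counts in each of the 8 root libraries. LSU1 had 5 to 17 counts a library at 0N and 1 to 7 at 60N (-1.22 ± 0.52, adjusted p = 0.0654). LSU1 passed with DESeq2 (adjusted p = 0.0307) and without Root_0N replicate 1, Root_60N replicate 2 or Root_60N replicate 4 (0.0327 to 0.0436).

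In all, 7 of the 10 members were called in roots, 1 higher and 6 lower, where 43.2% of the 21007 genes tested were called (17.4% higher and 25.7% lower). Their median log2 fold change was -1.06, and that of all genes tested was -0.09. The summed green-tissue markers (RBCS1A, CAB2, CAB3 and LHB1B1), which bear on shoot material among the roots, overlapped between 0N (10.9 to 61.8 CPM) and 60N (21.9 to 42.7 CPM). In bulk samples such as these, fewer cells of a type and less RNA per cell cannot be told apart.

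The same N comparison in protoplasts showed no called member. With edgeR 0 of 10 members were called between Protoplast_60N and Protoplast_0N (2 at an unadjusted p below 0.05, and 1 with DESeq2), where 2.41% of all genes were. APR1 was at 124, 77.9, 92.3 and 81.0 CPM at 0N and at 98.7, 89.3, 79.8 and 83.4 CPM at 60N. ATPS1 was at 110 to 135 and at 109 to 127 CPM, and the uptake transporter AT1G78000 at 102 to 145 and at 96.9 to 161 CPM. All of these groups overlapped. LSU1, at 7.53 to 15.2 CPM at 0N and 6.72 to 7.17 CPM at 60N, had groups that did not overlap but missed the threshold (-0.50 ± 0.26, adjusted p = 0.373). SIR came closest to a call, with 37.4 to 40.5 CPM at 0N and 40.7 to 57.5 CPM at 60N (log2 fold change 0.39 ± 0.11, adjusted p = 0.067). It passed with DESeq2 (adjusted p = 0.0335), with total count scaling (0.0209), in a fit of the 2 protoplast groups (0.0450), without Protoplast_60N replicate 1 (0.0191) and without Root_60N replicate 1 (0.0403).

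The difference between the tissues in the N response was tested as an interaction. It passed for 7 of 10 members, 6 with a higher value in protoplasts and 1 with a lower one, where 24.4% of all genes passed (14.2% higher and 10.2% lower). APR1 had the widest gap, with a protoplast minus root difference of 2.64 ± 0.27 in log2 fold change (adjusted p = 3.41e-07), followed by SDI1 (1.69 ± 0.49, adjusted p = 0.0141), ATPS1 (1.30 ± 0.18, adjusted p = 1.175e-05), APR3 (1.21 ± 0.24, adjusted p = 0.00088) and APR2 (0.96 ± 0.26, adjusted p = 0.00927). The sign was opposite for SULTR1;2 (-1.19 ± 0.20, adjusted p = 0.000162). SIR passed as well (0.52 ± 0.15, adjusted p = 0.0158), but not without any 1 of 7 of the 8 protoplast libraries (adjusted p of 0.0617 to 0.130, the exception being Protoplast_60N replicate 1) or without the filter on low counts (0.0679). AT5G10180, LSU1 and AT4G08620 did not pass (adjusted p = 0.109, 0.406 and 0.0878), although the first did without Root_60N replicate 2 (0.0229) and the last without Protoplast_0N replicate 2 (0.0474) or with DESeq2 (0.0208).

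**Figure D2:**
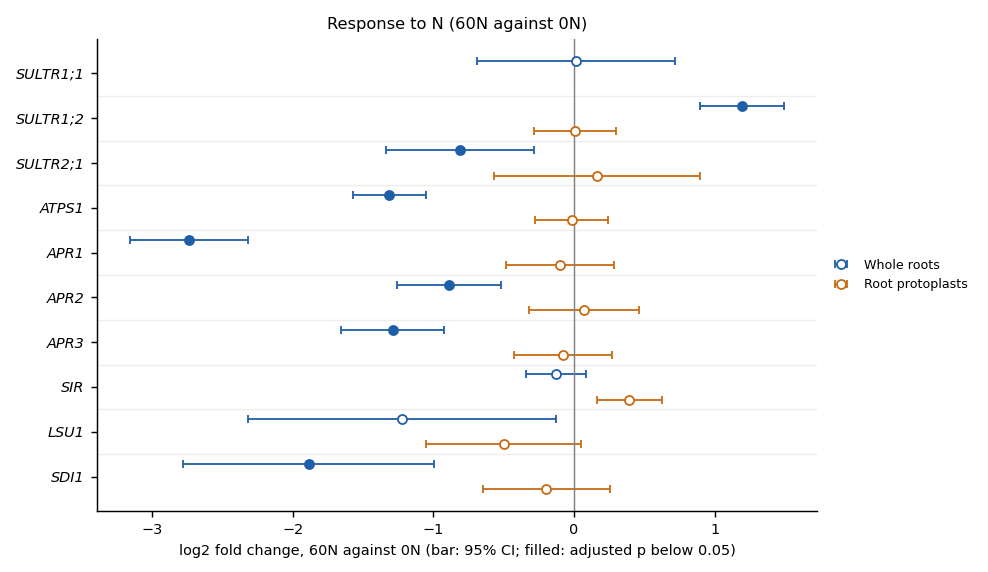
Log2 fold change from 0N to 60N (x axis, with the 95% interval as a bar) of each member (y axis) in whole roots and in protoplasts. Filled points passed the adjusted p of 0.05. In roots APR1 sat at -2.74 and AT1G78000 at 1.20, while no protoplast point was filled. AT4G08620 has no protoplast point because all of its 60N libraries were at 0.

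The levels themselves also differed between protoplasts and roots. The deficiency genes and APR3 were higher in protoplasts, and SIR and 2 of the transporters were lower. SDI1 was at 29.2, 16.6, 17.2 and 15.8 CPM in the 0N protoplasts, against at most 1.58 CPM in the 0N roots (log2 fold change 3.97 ± 0.26, adjusted p = 6.215e-12), and at 60N the difference was 5.66 ± 0.33. LSU1 was at 15.2, 7.53, 8.46 and 8.67 CPM against at most 0.758 CPM in the 0N roots (4.22 ± 0.33), with 4.94 ± 0.40 at 60N. The groups of both genes stood wholly apart at both doses. SIR was 4.98-fold lower in protoplasts at 0N (39.0 ± 1.4 against 194 ± 13 CPM, adjusted p = 2.38e-14) and 3.47-fold lower at 60N.

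SULTR1;1 was almost absent from protoplasts. It had 0, 0, 1 and 8 counts in the 0N libraries and 0 counts in all 4 libraries at 60N, against 46 to 99 counts in each root library. At 60N it was at least 40.1-fold lower in protoplasts, set against a floor of 3 counts over the group. At 0N the fitted log2 difference of -3.80 ± 0.56 (adjusted p = 4.179e-06) rested on Protoplast_0N replicate 4, without which it was -6.15. SULTR2;1 was at 2.33 to 2.84 CPM in the 0N protoplasts against 7.67 to 14.2 CPM in the roots (-1.94 ± 0.29, adjusted p = 2.999e-06). SULTR1;2 went the other way, with 116 ± 19 against 31.4 ± 2.8 CPM at 0N (1.89 ± 0.15, adjusted p = 8.898e-11) and 0.70 ± 0.14 at 60N (adjusted p = 0.000116).

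The distance between tissues depended on the N dose for the reduction genes. APR1 was at 93.9 ± 21.3 CPM in protoplasts and 75.1 ± 15.8 CPM in roots at 0N, with overlapping groups (0.32 ± 0.18, adjusted p = 0.104, and 0.0189 to 0.0410 without Protoplast_0N replicate 2 or 4 or any 1 library of Protoplast_60N, 0.0383 without the filter on low counts and 0.0433 in a fit of the groups compared), and at 87.8 ± 8.2 against 11.3 ± 4.0 CPM at 60N (2.96 ± 0.20, adjusted p = 1.326e-11). APR3 was 2.65-fold higher in protoplasts at 0N and 6.13-fold higher at 60N. ATPS1 was 2.07-fold lower in protoplasts at 0N (adjusted p = 8.587e-08), while at 60N its groups overlapped (118 ± 8 against 99.1 ± 14.9 CPM, adjusted p = 0.0635, but 0.0136 without Root_60N replicate 2, 0.0417 without Root_0N replicate 4 and 0.0470 in a fit of the groups compared). APR2 was lower in protoplasts at 0N (-0.43 ± 0.18, adjusted p = 0.0325) and higher at 60N (0.53 ± 0.19, adjusted p = 0.0117), with overlapping groups both times, and the call at 0N was lost without any 1 of the 8 protoplast libraries or without Root_0N replicate 2 (adjusted p of 0.0582 to 0.293), with DESeq2 (0.0596) and without the filter on low counts (0.0508). The interaction values above are the tests of these dose differences.

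In all, 9 of 10 members were called between the tissues at each dose, 4 higher and 5 lower in protoplasts at 0N and 6 higher and 3 lower at 60N, where 86.4% (40.4% higher and 46% lower) and 85.3% (40.8% higher and 44.5% lower) of all genes were called. Directions here rest on the scaling, since with total counts the median of all genes moved by -0.95 at 0N and -0.83 at 60N, and the share of calls that were higher in protoplasts went from 46.7% to 27.4% and from 47.8% to 29.4%. Under that scaling APR1 at 0N (-0.64), and APR2 (-0.30), SULTR1;2 (-0.13) and ATPS1 (-0.58) at 60N, reversed. The marker lists moved with tissue as well: summed endodermis markers were at 77.2 to 102 CPM in protoplasts against 127 to 244 CPM in roots, stele and vasculature markers at 98.5 to 121 against 337 to 431 CPM, and green-tissue markers at 0.106 to 0.979 against 10.9 to 61.8 CPM. The part of these in the member differences was not tested.

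Per kilobase of annotated exon, the order of the members also differed between the tissues. In the 0N roots ATPS1 came first at 129 ± 23 CPM per kb, then SIR at 58.4 ± 3.8, APR1 at 38.8 ± 8.1 and APR3 at 20.8 ± 2.3 CPM per kb, whose range met that of APR2 (16.9 ± 2.6). The transporters AT1G78000, AT5G10180 and AT4G08620 followed at 7.48, 3.94 and 1.36 CPM per kb, and SDI1 (1.03) and LSU1 (0.594) came last, with ranges that overlapped each other and that of AT4G08620. In the 60N roots SIR (53.5 ± 7.4) and ATPS1 (52.0 ± 7.8 CPM per kb) could not be separated, and APR1 stood sixth at 5.82 ± 2.05, with a range that overlapped those of APR2 and APR3 above it. In the 60N protoplasts ATPS1 (62.0 ± 4.4), APR3 (52.1 ± 1.7) and APR1 (45.4 ± 4.3 CPM per kb) led, the last pair with overlapping ranges. AT1G78000 has 7 annotated transcripts, so its joint exon length of 4193 bp may be longer than most of its RNA.

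The CHX experiment asked what blocked translation does in the same kind of cells. Both deficiency genes rose with CHX, while the uptake transporter AT1G78000, APR2 and SIR fell, in EV and in TGA4 cells alike. SDI1 was at 21.1, 22.1 and 21.3 CPM without CHX and at 60.5, 72.8 and 75.1 CPM with it in EV cells (log2 fold change 1.68 ± 0.19, edgeR adjusted p = 1.11e-07). In TGA4 cells it went from 24.6, 20.7 and 34.3 CPM to 64.1, 70.8 and 108 CPM (1.57 ± 0.19, edgeR adjusted p = 5.553e-07). The CHX libraries lay above the others in both vectors. LSU1 rose from 8.44 ± 1.58 to 25.0 ± 6.7 CPM (SD, n = 3) in EV cells, and from 16.3 ± 3.9 to 32.4 ± 3.4 CPM in TGA4 cells.

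SULTR1;2 was at 696, 756 and 797 CPM in EV cells without CHX and at 329, 225 and 255 CPM with it, a fall of 2.78-fold (log2 fold change -1.47 ± 0.16, adjusted p = 9.137e-08). In TGA4 cells it was at 675, 400 and 494 CPM and at 325, 252 and 272 CPM (-0.89 ± 0.16, adjusted p = 9.323e-05). Neither vector had an overlap between its CHX groups. APR2 fell 2.15-fold in EV cells (192 ± 38 to 89.7 ± 5.5 CPM, adjusted p = 3.65e-06) and 1.94-fold in TGA4 cells (228 ± 38 to 119 ± 25 CPM, adjusted p = 2.896e-05). SIR fell by 0.61 ± 0.12 in EV cells (adjusted p = 0.000281) and by 0.42 ± 0.13 on the log2 scale in TGA4 cells (adjusted p = 0.0132), the latter call being lost without TGA4_mChx replicate 1 (adjusted p = 0.0669) or TGA4_pChx replicate 2 (0.0613).

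The other APS reductases did not follow APR2. APR1 was at 201 to 233 CPM without and 172 to 244 CPM with CHX in EV cells, and its 95% interval of the log2 difference ran from -0.46 to 0.27. APR3 was at 350 to 402 and 313 to 408 CPM, with an interval from -0.46 to 0.21. In TGA4 cells the intervals ran from -0.10 to 0.65 for APR1 and from -0.07 to 0.62 for APR3, both with overlapping groups, but APR1 passed without TGA4_pChx replicate 2 (0.499, adjusted p = 0.0198) and APR3 without TGA4_mChx replicate 1 (0.47, adjusted p = 0.0283). ATPS1 fell in TGA4 cells (352 ± 47 to 258 ± 26 CPM, -0.45 ± 0.12, adjusted p = 0.00323), while in EV cells its value was -0.28 ± 0.12 (adjusted p = 0.0520, and 0.0380 to 0.0411 without EV_mChx replicate 1, EV_pChx replicate 3 or TGA4_mChx replicate 2). SULTR1;1 had no count in any of the 12 libraries (3 counts would be 0.397 to 1.20 CPM in a library), and SULTR2;1, with 0 to 14 counts a library, was too low to be tested.

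**Figure D3:**
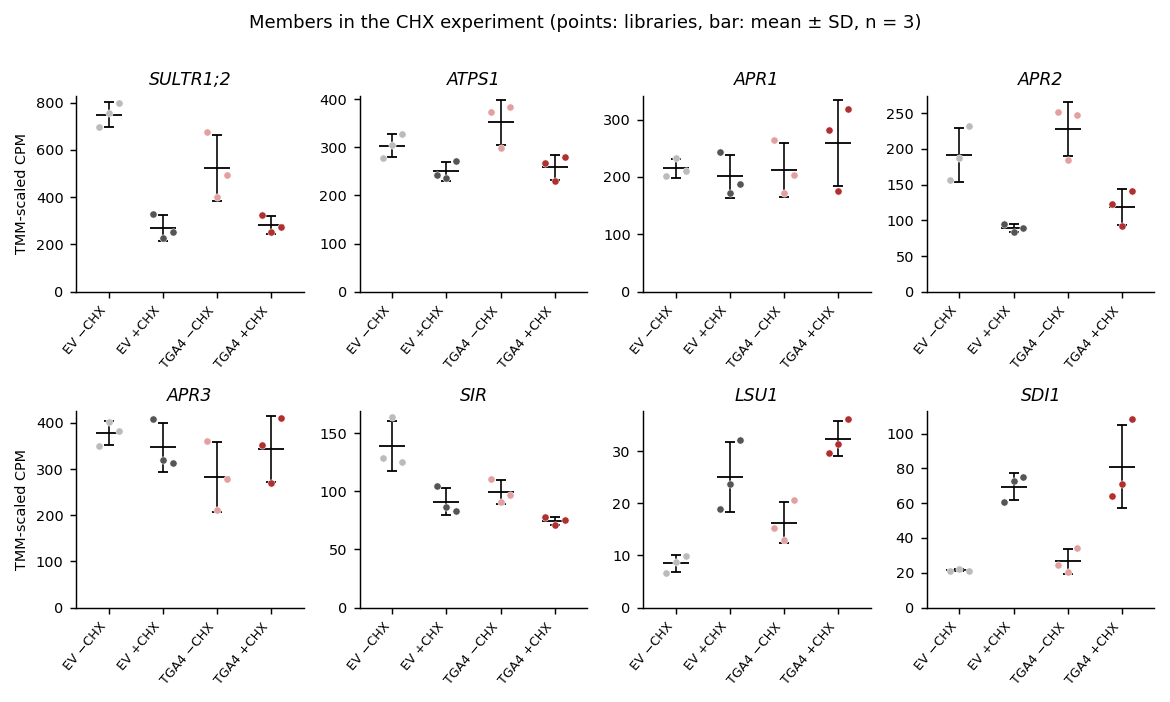
CPM (y axis, TMM-scaled, from 0) of the 8 members tested in the CHX experiment, in 3 libraries for each vector with and without CHX (x axis), with the mean and SD as bars. SDI1 sat at 20.7 to 34.3 CPM without CHX and at 60.5 to 108 CPM with it, and the uptake transporter moved from 400 to 797 CPM down to 225 to 329 CPM.

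In all, 5 of 8 members tested were called with CHX in EV cells (2 higher and 3 lower) and 6 of 8 in TGA4 cells (2 higher and 4 lower), where 48.1% (23.6% higher and 24.5% lower) and 45.9% (23.4% higher and 22.6% lower) of all 18674 genes tested were called. LSU1 and SDI1 were called higher, and AT1G78000, APR2 and SIR lower, in both vectors. The share of all genes called alike in both vectors was not counted, so this overlap is a description only. The difference in CHX effect between vectors passed for 0 of 8 members (edgeR, with 1 at an unadjusted p below 0.05 and 0 with DESeq2), where 0.129% of all genes passed, and the widest value was that of SULTR1;2 (0.58, 95% interval 0.12 to 1.05, adjusted p = 0.631). With total counts the median of all genes moved by -0.28 in EV and -0.33 in TGA4 cells, the share of calls that were higher went from 49.1% to 32.4% and from 50.9% to 31.8%, and the fall of ATPS1 (-0.56) and of APR3 (-0.40) in EV cells became a call.

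The N-dose experiment asked which genes TGA4 changes at each N dose when translation is blocked. APR1 and APR3 were higher in TGA4 than in EV cells at all 3 doses. APR1 was at 15.1, 15.7 and 13.9 CPM in EV cells at 0N and at 25.0, 27.1 and 27.7 CPM in TGA4 cells (log2 fold change 0.83 ± 0.20, adjusted p = 0.00935). At 5N it was at 16.5, 14.5 and 15.3 against 25.0, 41.1 and 32.3 CPM (1.08 ± 0.20, adjusted p = 0.00130), and at 60N at 18.4, 12.5 and 11.3 against 29.1, 32.3 and 49.4 CPM (1.39 ± 0.20, adjusted p = 6.411e-05). At each dose every TGA4 library lay above every EV library.

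APR3 behaved alike. It was at 20.1, 18.5 and 27.4 CPM in EV cells and at 35.0, 35.4 and 34.6 CPM in TGA4 cells at 0N (0.67 ± 0.15, adjusted p = 0.00783). At 60N it was at 18.7, 17.0 and 20.2 against 42.9, 44.1 and 55.8 CPM, which is 2.56-fold higher (1.36 ± 0.16, adjusted p = 4.3e-06), and at 5N it was 1.78-fold higher (adjusted p = 0.00148). The 0N call of APR3 was lost without EV_0N replicate 2 (0.56, adjusted p = 0.0595) or with total count scaling (0.46, adjusted p = 0.0522). APR2, the third reductase, gave values of 0.11, 0.22 and 0.36 at 0N, 5N and 60N, none of them called (adjusted p = 0.320 to 0.798).

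**Figure D4:**
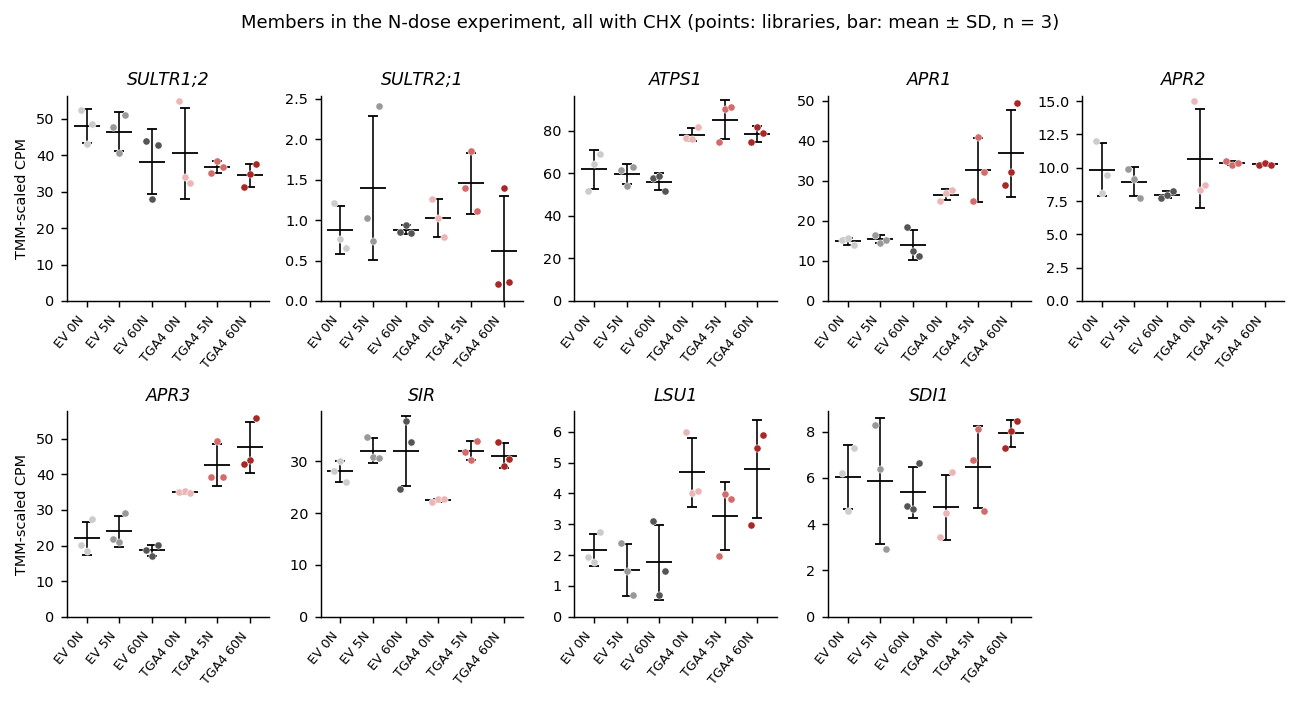
CPM (y axis, TMM-scaled, from 0) of the 9 members tested in the N-dose experiment, in 3 libraries of each vector and dose (x axis), with the mean and SD as bars. APR3 sat at 17.0 to 29.1 CPM in EV cells and at 34.6 to 55.8 CPM in TGA4 cells.

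Upstream of the reductases, ATPS1 was 1.43-fold higher in TGA4 cells at 5N (85.3 ± 9.1 against 59.6 ± 4.8 CPM, adjusted p = 0.00666) and 1.40-fold higher at 60N (78.6 ± 3.7 against 56.2 ± 3.9 CPM, adjusted p = 0.0111), and its value at 0N was 0.34 ± 0.11 (adjusted p = 0.0741, and 0.0441 or 0.0466 without EV_0N replicate 3 or EV_5N replicate 3, and 0.0334 with DESeq2). Both calls were lost with total count scaling (0.36, adjusted p = 0.0779, and 0.32, adjusted p = 0.117), and that at 60N also without EV_60N replicate 3 (adjusted p = 0.0522) or TGA4_60N replicate 2 (0.0583). LSU1 was called at 60N, at 3.11, 0.721 and 1.48 CPM in EV cells and 2.98, 5.48 and 5.91 CPM in TGA4 cells (1.496 ± 0.44, adjusted p = 0.0395). Its groups overlapped, and the call was lost on leaving out any 1 of 5 libraries, with adjusted p of 0.0511 to 0.189: TGA4_0N replicate 2, EV_60N replicate 2 or 3, or TGA4_60N replicate 2 or 3. It was also lost in a fit of the groups compared (adjusted p = 0.0980). At 0N its value of 1.11 missed the threshold (adjusted p = 0.113) but passed without the filter on low counts (1.12, adjusted p = 0.0448) and in a fit of the groups compared (adjusted p = 0.0250). The 2 transporters tested, SIR and SDI1 were called at no dose, although SIR was lower in TGA4 cells at 0N with total count scaling (-0.53, adjusted p = 0.0242).

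In all, 2 of 9 members tested were called at 0N, 3 at 5N and 4 at 60N, all higher in TGA4 cells, where 8.87% (5.74% higher and 3.13% lower), 7.89% (5.41% and 2.48%) and 7.74% (5.21% and 2.52%) of all 18342 genes tested were called. The members' median log2 fold changes were 0.22, 0.22 and 0.48, and those of all genes were -0.03, -0.01 and -0.03. With total counts the median of all genes moved by -0.21, -0.15 and -0.16, and the share of calls that were higher went from 64.7% to 24.0%, from 68.6% to 36.0% and from 67.4% to 32.9%. The effect of TGA4 was not shown to differ between doses: 0 of 9 members passed the test over both dose terms (edgeR, with 1 at an unadjusted p below 0.05 and 0 with DESeq2, smallest adjusted p = 0.969), and 0% of all genes did. Marker lists moved with the vector too. The 5 summed stele and vasculature markers were lower in TGA4 than in EV cells with no overlap, at 78.1 to 89.6 against 101 to 125 CPM at 0N, 73.6 to 82.3 against 83.5 to 105 CPM at 5N and 84.5 to 93.9 against 102 to 106 CPM at 60N. The 3 endodermis markers were at 12.6 to 21.8 against 32.5 to 35.5 CPM at 5N and at 19.4 to 21.1 against 21.9 to 36.5 CPM at 60N, and overlapped at 0N (22.8 to 31.0 against 27.1 to 32.9 CPM). The epidermis and root hair markers overlapped at every dose, at 1.05 to 4.80 CPM in all, and green-tissue markers stayed at or below 0.568 CPM. The part of these lists in the member differences was not tested.

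N dose by itself gave no called member in these CHX-treated cells. Among EV cells 0 of 9 members were called for 60N against 0N, for 5N against 0N or for 60N against 5N (edgeR, with 0, 0 and 1 at an unadjusted p below 0.05, and 0 with DESeq2 in each), where 3.59%, 1.59% and 0.0818% of all genes were. APR1 was at 14.9 ± 0.9, 15.4 ± 1.0 and 14.1 ± 3.8 CPM at the rising doses (SD, n = 3), and the 95% interval of its log2 difference between 60N and 0N ran from -0.51 to 0.34. Among TGA4 cells 0 of 9 were called in each of the same contrasts (edgeR, with 4, 1 and 1 at an unadjusted p below 0.05, and 1, 0 and 0 with DESeq2), where 3.04%, 0.273% and 0% of all genes were. SIR came closest, at 22.0 to 22.7 CPM at 0N and 29.0 to 33.7 CPM at 60N (0.47 ± 0.13, adjusted p = 0.0549). It passed with DESeq2 (adjusted p = 0.0255), without the filter on low counts (0.0452), in a fit of the 2 groups (0.00656) and without EV_5N replicate 3 (0.0386), EV_60N replicate 1 (0.0122) or EV_60N replicate 2 (0.0273). At 5N against 0N SIR passed without EV_60N replicate 1 (0.0259) and in a fit of the 2 groups (0.0316). For 60N against 0N, APR3 (0.43, edgeR adjusted p = 0.0146) and SDI1 (0.72, adjusted p = 0.0364) also passed in a fit of the 2 groups.

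The CHX experiment gave the same vector comparison without and with CHX. Without CHX, LSU1 was higher in TGA4 cells (15.3, 12.9 and 20.6 against 6.71, 8.82 and 9.80 CPM, 0.94 ± 0.24, adjusted p = 0.0222) and SIR was lower (111, 90.8 and 96.9 against 128, 164 and 125 CPM, -0.49 ± 0.13, adjusted p = 0.0222). These 2 of 8 members were called where 5.89% of all genes were (2.91% higher and 2.98% lower). LSU1 was lost without EV_mChx replicate 1 or 2 or TGA4_mChx replicate 3 (adjusted p of 0.0519 to 0.201), and SIR without EV_mChx replicate 2 or TGA4_mChx replicate 2 or 3 (0.101 to 0.141). SULTR1;2 was at -0.52 ± 0.16 (adjusted p = 0.0542), with no overlap of its groups. It passed with DESeq2 (adjusted p = 0.0349), without the filter on low counts (0.000955), in a fit of the 2 groups (0.0194) and without EV_pChx replicate 1, TGA4_mChx replicate 1 or TGA4_pChx replicate 1 (0.00904 to 0.0381). APR3, at -0.42 ± 0.16 (adjusted p = 0.150), passed without TGA4_mChx replicate 1 (0.0414) and without the filter (0.0197).

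With CHX, 0 of 8 members were called between the vectors (edgeR, with 2 at an unadjusted p below 0.05 and 0 with DESeq2), where 1.92% of all genes were. Set beside each other, the 60N cells of the N-dose experiment and the CHX-treated cells of the CHX experiment had the same supply of CHX, DEX and, per the methods, N. The TGA4 against EV log2 fold change of APR1 was 1.39 ± 0.20 in the first and 0.35 ± 0.18 in the second (95% interval -0.02 to 0.72), that of APR3 1.36 ± 0.16 and -0.02 ± 0.16 (-0.36 to 0.32), and that of ATPS1 0.48 ± 0.12 and 0.04 ± 0.12 (-0.20 to 0.29). APR2 was at 0.36 ± 0.20 and 0.39 ± 0.16 (0.06 to 0.72, adjusted p = 0.278). The difference between the experiments was not tested. The summed endodermis markers were lower in TGA4 than in EV cells of the CHX experiment, at 30.3 to 44.8 against 65.2 to 69.3 CPM without CHX and 21.1 to 33.3 against 53.8 to 63.0 CPM with it, and so were the stele and vasculature markers (99.95 to 120 against 137 to 141 CPM and 86.3 to 125 against 138 to 158 CPM). The epidermis and root hair markers were higher in TGA4 cells without CHX (13.7 to 18.8 against 6.25 to 12.1 CPM) and overlapped with it, and the green-tissue markers, at or below 2.09 CPM, overlapped in both. The part of these lists in the member differences was not tested.

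**Figure D5:**
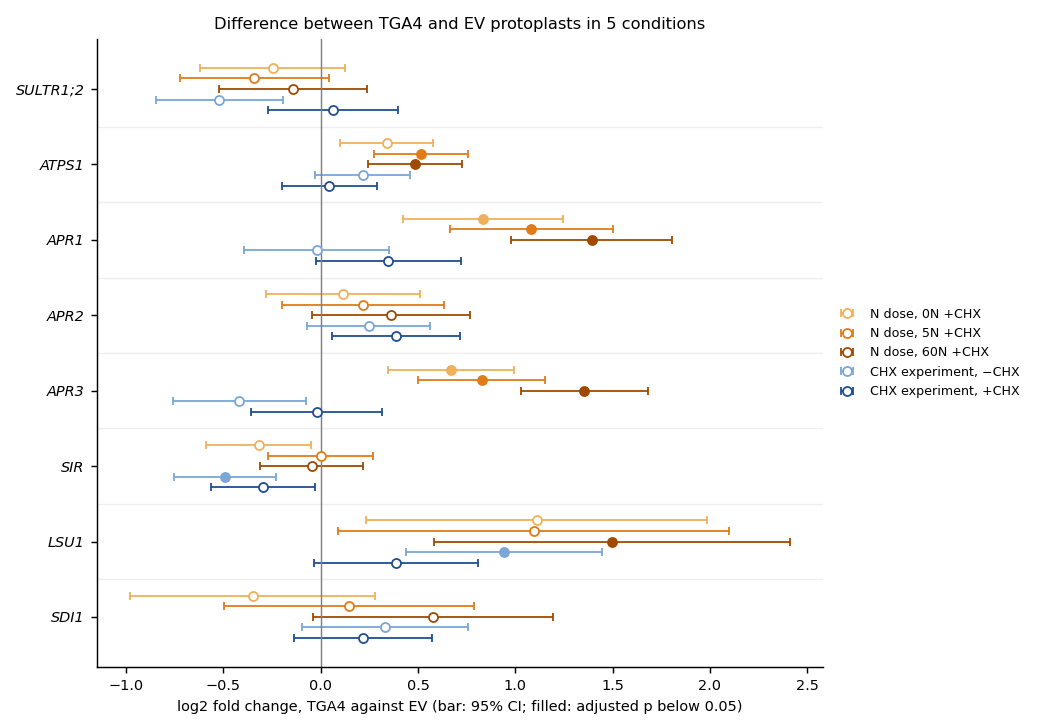
Log2 fold change of TGA4 against EV cells (x axis, with the 95% interval as a bar) for 8 members (y axis) in 5 conditions of 2 experiments. Filled points passed the adjusted p of 0.05. APR1 and APR3 sat at 0.67 to 1.39 in the N-dose experiment, and at -0.42 to 0.35 with no filled point in the CHX experiment.

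The levels behind these contrasts also stood apart between experiments, given here side by side and without a test because the tables were scaled separately. SULTR1;2 ran from 27.9 to 55.0 CPM in the 18 N-dose libraries, from 96.9 to 161 CPM in the 8 protoplast libraries without CHX or DEX, and from 225 to 797 CPM in the 12 CHX-experiment libraries. APR3 ran from 17.0 to 55.8, from 87.3 to 123 and from 211 to 410 CPM, and SDI1 from 2.92 to 8.46, from 12.6 to 29.2 and from 20.7 to 108 CPM. The CHX experiment pools libraries with and without CHX, whereas every N-dose library had CHX. Its libraries with CHX held SULTR1;2 at 225 to 329, APR3 at 269 to 410 and SDI1 at 60.5 to 108 CPM. AT4G08620 was at or near 0 in all 3 sets of protoplasts, with at most 8 counts in a library.

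Other genes of the route were counted from lists of their role. In roots, N lowered 4 of 9 other sulfate transporters, 4 of 7 other ATP sulfurylases and APS kinases and 5 of 7 other deficiency genes, and raised 1, 1 and 0 of them, where 25.7% of all genes tested were lower and 17.4% higher. LSU2, a relative of LSU1, went from 9.08 to 0.639 CPM (-3.84 ± 0.29, adjusted p = 9.192e-10) and LSU4 from 6.67 to 0.805 CPM (-3.05 ± 0.32, adjusted p = 1.045e-07). APK2, an APS kinase that feeds sulfated compounds, fell by 1.62 ± 0.20 on the log2 scale, and APS3, an ATP sulfurylase, by 1.04 ± 0.15. SULTR3;5, known as a helper in root-to-shoot transport, rose from 6.80 to 62.4 CPM (3.21 ± 0.24, adjusted p = 7.015e-10). Of 11 tested genes of cysteine synthesis 5 rose and 1 fell, with SERAT2;1, a serine acetyltransferase, at 1.20 ± 0.15.

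TGA4 cells had more APS3 and SULTR3;1 RNA than EV cells in all 5 conditions. APS3 was at 38.2, 49.6 and 58.8 CPM in TGA4 cells at 0N, 5N and 60N, against 5.27, 5.94 and 8.37 CPM in EV cells (2.85 ± 0.23, 3.05 ± 0.24 and 2.86 ± 0.22, largest adjusted p = 3.699e-08). In the CHX experiment the values of APS3 were 1.31 ± 0.34 without CHX (adjusted p = 0.0254) and 1.38 ± 0.23 with it (0.00148). SULTR3;1, a transporter of the plastid envelope, was higher by 2.46 ± 0.36, 2.64 ± 0.38 and 1.29 ± 0.34 at the rising N doses and by 1.02 ± 0.24 and 1.51 ± 0.23 in the CHX experiment. Among the other deficiency genes, 2, 2 and 4 of 6 tested were higher in TGA4 cells at 0N, 5N and 60N, where 5.74%, 5.41% and 5.21% of all genes tested were, with BGLU28, a glucosinolate-cleaving enzyme, higher by 2.03 ± 0.33, 1.37 ± 0.34 and 1.56 ± 0.35.

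With CHX, 4 of 6 other deficiency genes tested fell in EV cells and 1 rose, where 24.5% of all genes tested were lower and 23.6% higher. GGCT2;1, a glutathione-degrading enzyme, fell by 1.34 ± 0.19 (adjusted p = 3.097e-06), BGLU28 fell by 1.13 ± 0.19 and LSU2 fell by 0.77 ± 0.17 on the log2 scale, while SDI2 rose by 0.80 ± 0.15 (adjusted p = 0.000139). In TGA4 cells 3 of 6 fell and 1 rose, where 22.6% of all genes tested were lower and 23.4% higher. APS3 rose in both vectors, by 2.33 ± 0.30 and 2.41 ± 0.27, as did APK2, by 1.47 ± 0.22 and 2.16 ± 0.25. ATPS1 and APS3 are paralogs, and the same holds for the APS reductases, so reads that fit more than one of them could be split in a way the counts do not show. APR1, APR2 and APR3 also overlap annotated genes on the opposite strand, and whether reads were counted by strand is not given in the sources used here.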

How the data were processed

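Root and protoplast RNA-seq libraries were analysed from one table of whole-number counts per gene for each library, deposited by the authors without normalization. Per the study's methods and the submitters' processing notes, the authors aligned reads to TAIR10 with TopHat2 (version 2), counted them with GenomicFeatures and GenomicAlignments and used DESeq2. Groups and replicate numbers came from the labels. Counts of each experiment were fitted with edgeR 4.0.16 (R 4.3.3; TMM scaling, filterByExpr, one mean per group, quasi-likelihood test, Benjamini-Hochberg over all genes tested, threshold 0.05). All 10 members were named throughout, and of the other lists up to 4 called genes a comparison with the largest change and no overlap. The members and lists were chosen with earlier results of these data known. Alternatives were RLE scaling, total count scaling (chosen after seeing the data), no filter, DESeq2 1.42.0, a replicate block, a fit of the compared groups only, a minimum absolute log2 fold change (1) and leaving out each library. Replicate pairs within a group differed by more than sampling noise (chi-square per degree of freedom of 2.23 to 28.9 over 54 pairs). Same-numbered libraries deviated together (every correlation over 0.1) only between EV_60N and EV_0N (0.156 to 0.242, 3 pairs). Library totals give the depth, and floors of 3 counts cover counting error only. Sequences came from RefSeq TAIR10.1 by locus ID. The scripts' tests were checked on simulated data.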

Additional observations from a re-analysis of the deposited data

Results flagged for a closer look

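Single libraries stood apart from the other 3 of their group in 5 of 39 groups of member values tested with Dixon's ratio. Chance alone flags about 1 of 20 such groups when values are independent and normally spread. The groups here are genes read from the same libraries, so these rates cannot be compared. Protoplast_0N replicate 1 was high for LSU1 (15.162 CPM) and SDI1 (29.158 CPM), and Protoplast_0N replicate 4 for SULTR1;1 (0.72224 CPM). Protoplast_60N replicate 1 was high for SULTR1;2 (161.21 CPM), and Root_60N replicate 4 for SULTR1;1 (4.2788 CPM).

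The response to N differed between protoplasts and roots by the interaction test for 7 members, as protoplast minus root in log2 fold change: SULTR1;2 at -1.188, ATPS1 at 1.298, APR1 at 2.641, APR2 at 0.9588, APR3 at 1.211, SIR at 0.5211 and SDI1 at 1.691.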

How the results depend on the processing

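Most comparisons kept their count of called members within 1.5 times, where a count of 0 that stayed at 0 was taken as kept. Several were kept only in that way, having no called member under any alternative. In the comparison of 60N with 0N in TGA4 cells the count went from 0 to 1 without the filter on low counts, to 1 with DESeq2 and to 3 in a fit of the groups compared only, and ran from 0 to 1 on leaving out 1 library. At 5N against 0N in TGA4 cells it was 1 in a fit of the groups compared and 0 to 1 on leaving out 1 library. With a minimum absolute log2 fold change of 1, the count between TGA4 and EV cells went from 2 to 0 at 0N, from 3 to 1 at 5N and from 2 to 0 without CHX, and from 6 to 1 for CHX in TGA4 cells. Leaving out 1 library gave 1 to 3 at 0N, 2 to 4 at 60N and 0 to 4 without CHX, where no filter gave 4. For N in protoplasts the count of 0 became 1 with DESeq2, with the groups compared only and with total count scaling, and ran from 0 to 1 on leaving out 1 library.

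Total count scaling, chosen after seeing the data, reversed protoplast against root values of APR1 at 0N (-0.6377) and, at 60N, of APR2 (-0.3046), SULTR1;2 (-0.1289) and ATPS1 (-0.58). Its shift of the median of all genes was also -0.12 and -0.11 for 60N and 5N against 0N in EV cells, and 0.125 for the tissue by N interaction, where the share of calls that were higher went from 63.9% to 36.1%, from 65.1% to 30.1% and from 58.2% to 72%. That share also went from 63.6% to 87.4% for N in protoplasts and from 59.6% to 35.8% for 60N against 0N in TGA4 cells. RLE scaling moved it from 63.6% to 52.6% for N in protoplasts. Over 3733 recomputed values, 41 calls were lost and 57 gained, of which 33 and 30 came from leaving out 1 library, and the cause was not tested. With the replicate block all 20 counts of calls stayed within 1.5 times. The block added calls of ATPS1 with CHX in EV cells (-0.28, adjusted p = 0.0201), of ATPS1 between the tissues at 60N (0.26, adjusted p = 0.0431) and of SULTR1;2 between TGA4 and EV cells without CHX (-0.56, adjusted p = 0.00543). Outside EV_60N against EV_0N, no comparison had every same-numbered pair correlate over 0.1. For TGA4_pChx against EV_pChx the correlations ran from 0.0105 to 0.227. The labels give no link between same-numbered samples beyond the number.

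Depth limits the low members. SULTR1;1 in all protoplasts and SULTR2;1 in the CHX experiment rest on few counts. So do SULTR2;1 (2 to 24 counts a library) and LSU1 (7 to 57) in the N-dose experiment, and LSU1 (1 to 17) and SDI1 (2 to 37) in roots.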

Other observations

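Over the 14 groups of all experiments, the genes whose mean levels followed SDI1 most closely among 16576 genes were AT5G03110 (Pearson r = 0.992), RBOHD (0.991), AT1G58420 (0.99), CAX9 (0.99) and AT5G63130 (0.989). Levels were group means of log2 CPM, centred but not scaled within each experiment. The wide difference of SDI1 between protoplasts and roots therefore weighs most in r. This is a description with no test, and a close match is not particular to sulfur genes. Between protoplasts and roots at 0N alone, 86.4% of all genes tested were called.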
